A study of Mus musculus with 8 samples.

Results

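The 10 genes described here encode the TEAD transcription factors and the proteins that bind or restrain them: Tead1, Tead2, Tead3, Tead4, Yap1, Wwtr1, Vgll2, Vgll3, Vgll4 and Amotl2. They were set by name, by a rule that uses no measured value, although the group was chosen with earlier results of these data known. The expression table has 27179 genes, and all 10 were among the 11406 genes that passed the filter on low values. The samples were C2C12 cells, an immortalized mouse myoblast line, so both states come from the same line and the other cells of muscle are not part of the model. GM cells were proliferating at 50% confluence in growth medium with 10% fetal bovine serum. 3d DM cells had passed 90% confluence and then spent 3 days in differentiation medium with 2% horse serum, so medium, density and time in culture change together and cannot be told apart. Both media were high glucose DMEM on collagen-coated dishes, and the labels name no further treatment or transgene. Each state gave 2 input libraries of mRNA (RNA-seq) and 2 libraries of the same kind of RNA immunoprecipitated with an antibody to m6A, a methyl mark on adenosine (MeRIP-seq). Whether the replicates came from separate cultures was not given in the sources used here. The p-values therefore cannot be read as measuring a spread between cultures. On the deposited values they rest on a spread pooled over genes of like level, not on a gene's own replicates.

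TEAD factors bind DNA at the MCAT element, a sequence found in the promoters of many muscle genes, and have little activity without a partner. Yap1 and Wwtr1 (TAZ) are co-activators that are held out of the nucleus when the Hippo kinases phosphorylate them, and the Vgll proteins compete for the same surface of TEAD. In myoblasts Yap1 is known for favouring growth over differentiation, whereas Tead4 is known as a gene that the myogenic factors switch on.

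The core letters of the MCAT element, CATTCC on either strand, were looked for in the RefSeq promoters (GRCm38.p6, 250 bases before to 50 bases after a gene's start). A promoter was matched by symbol for 8 of the 10 genes, and 6 of these 8 (75%) held the letters, namely Tead3, Yap1, Wwtr1, Vgll3, Vgll4 and Amotl2. The share was 16.6% over all 27025 genes in the table and 14.7% over its 32851 promoters, beside 8 of the 11 promoters of these genes (72.7%). In the lists described further on, the letters were in 10 of 27 Hippo genes (37.0%), 6 of 14 YAP/TAZ targets (42.9%) and 4 of 5 muscle genes known for the element (80%). Tead2 and Vgll2 had a promoter without them, and Tead1 and Tead4 were not matched. Windows of 30 bases are printed below because TEAD's own partners and paralogues carry its letters, which stand in capitals. The element on the opposite strand reads GGAATG, and the 2 forms cannot overlap. The windows of Tnnt2 and Acta1, muscle genes with a well-known MCAT element, are added for comparison. All are on the gene's strand, 5′ to 3′. Coordinates here and in the following are those of mm10, the GRCm38 assembly.
Tead3, chr17:28350697-28350726, minus strand: gctCATTCCgtaCATTCCggccatccccct
Wwtr1, chr3:57576029-57576058, minus strand: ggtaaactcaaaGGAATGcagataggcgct
Yap1, chr9:8004720-8004749, minus strand: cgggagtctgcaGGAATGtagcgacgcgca
Vgll3, chr16:65815114-65815143, plus strand: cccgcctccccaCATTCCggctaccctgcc
Vgll4, chr6:114969268-114969297, minus strand: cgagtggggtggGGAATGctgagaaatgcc
Amotl2, chr9:102717727-102717756, plus strand: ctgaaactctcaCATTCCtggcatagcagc
Tnnt2, chr1:135836295-135836324, plus strand: tctcctgctgcaCATTCCtccctccgcggg
Acta1, chr8:123894804-123894833, minus strand: gaagggcagcaaCATTCCttcggggcggtg

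Counted from the gene's start, the first letter of the element stood at -65 in Amotl2, at -63 in Vgll3, at -82 in Vgll4 and at -141 in Yap1, beside -27 in Tnnt2 and -46 in Acta1. In Wwtr1 the same copy lay at -136 or -170, depending on which of its RefSeq starts was used. Tead3 had 2 RefSeq promoters and 4 copies, of which the pair in the window above lay at -123 and -114. A match says that the letters are present, not that TEAD binds there, and binding was not measured.

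The values are the deposited normalised values of the input libraries, and the depth of the libraries is unknown. GM replicate 1, GM replicate 2, 3d DM replicate 1 and 3d DM replicate 2 are given in this order throughout. Every column had nearly the same total, but median-of-ratios factors still placed the typical gene of a 3d DM library 0.23 lower on the log2 scale than that of a GM library, and 3d DM replicate 1 was the lowest of the 4. Fold changes are therefore given for the deposited values and, where the call differs, after division by these factors (rescaled). The label checks Myh3, Mymk, Ckm, Myog and Mki67 followed the states. The embryonic myosin Myh3 was at 1068, 273, 33485 and 51674, and the proliferation gene Mki67 at 3586, 3659, 446 and 760.4. Within GM, replicate 1 stood above replicate 2 for Myh3, Myog (1008 against 220.8), Mymk (697.8 against 101.4) and Ckm (109.9 against 17.1). The GM libraries were thus unlike in these differentiation genes, and the source of this gap was not tested. The check Myod1 did not follow them, with values of 1713, 1129, 1016 and 1645 that overlapped between the states. Of the markers of other cells, Ptprc, Pecam1, Epcam, Adipoq and Sox10 were at 2.32 or below in every library, whereas Pparg stood at 146, 135.5, 44.5 and 49.3. In bulk RNA, fewer cells that express a gene and less RNA per cell cannot be told apart.

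Tead4, which rose about 5-fold from GM to 3d DM, was the only gene of the 10 that passed the test on the deposited values. Tead3, Wwtr1 and Vgll3 lay above both GM libraries in both 3d DM libraries and passed the test after rescaling. The other 6 overlapped between the states on the deposited values, of which Tead1 and Vgll4 no longer overlapped after rescaling. The share of all tested genes without overlap after rescaling was not counted, so the rescaled groups have no background to be set beside. With limma on log2(value + 1) and an adjusted p below 0.05, 1 of the 10 genes was called higher and 0 lower, where 7.01% of all tested genes were called higher and 9.96% lower. At an unadjusted limma p below 0.05, 4 of the 10 passed, beside 2987 of all 11406 tested genes. After rescaling, 4 of the 10 were called higher and 0 lower, beside 12.0% higher and 11.2% lower of all tested genes. The split of calls over all genes was 800 higher and 1136 lower on the deposited values, and 1365 higher and 1281 lower after rescaling. The median log2 fold change of the 10 genes was 0.58, against -0.22 for all tested genes, and 0.80 against 0.00 after rescaling. Standard errors on the deposited values followed the intensity trend over all genes and not a gene's own replicates.

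**Figure D1:**
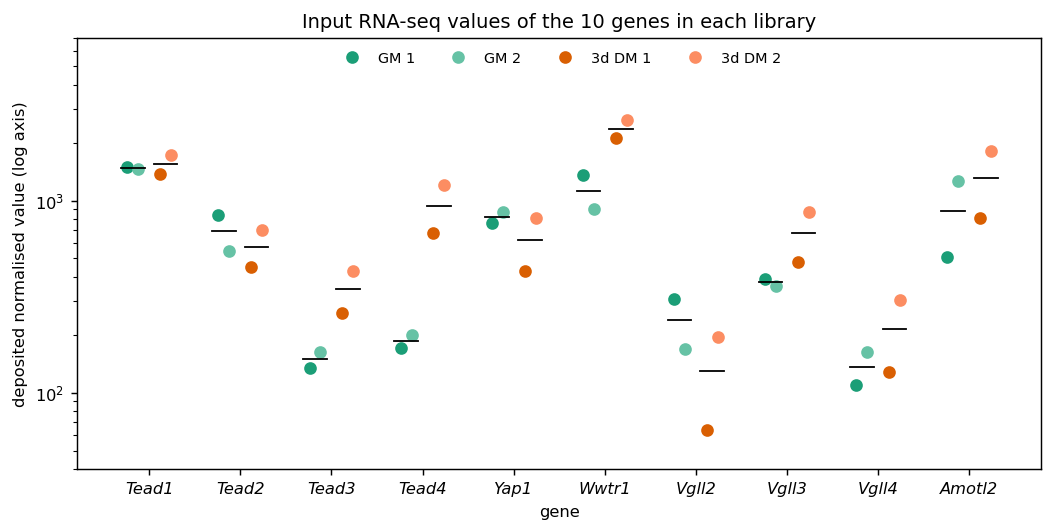
Deposited normalised values (log axis) of the 10 genes in each of the 4 input libraries, with GM in green and 3d DM in orange. Points are libraries and short lines are the means of 2. Tead3, Tead4, Wwtr1 and Vgll3 have both 3d DM points above both GM points, and the other genes overlap.

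Tead4 (chr6:128227143-128300813) had values of 170.2, 201, 679.5 and 1200. Both 3d DM libraries were far above both GM libraries, and the groups did not overlap. The means were 185 ± 21.6 in GM and 939.8 ± 368 in 3d DM (SD, n = 2), a log2 fold change of 2.28 ± 0.45 (SE; limma, adjusted p = 7.31e-06). The call was lost without 3d DM replicate 2, with a log2 fold change of 1.87 and a limma adjusted p of 0.0546. Over all alternatives the adjusted p ran from 6.37e-06 to 0.0546.

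Tead3 (chr17:28331671-28350805) had values of 134, 164, 259 and 430.3. Both 3d DM libraries were above both GM libraries, with means of 149 ± 20.6 and 345 ± 121 (SD, n = 2). The log2 fold change was 1.17 ± 0.47 (SE; limma, adjusted p = 0.0699). After rescaling it was 1.39 ± 0.25 with a limma adjusted p of 0.0148, so that the scaling decided the call. With the replicate number as a block on the deposited values, the limma adjusted p was 0.228.

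Tead1 (chr7:112679356-112906784), a factor found in most tissues, had values of 1489, 1455, 1377 and 1723. The GM values lay between the 3d DM values, and the log2 fold change was 0.07 ± 0.42 (SE; limma, adjusted p = 0.952). Tead2 (chr7:45215792-45233468), known for its expression in progenitor cells, had values of 837, 545, 449 and 702.5. The groups overlapped here too, with a log2 fold change of -0.27 ± 0.44 (SE; limma, adjusted p = 0.788). The sign was not settled for either: without 3d DM replicate 2 Tead1 gave -0.10, and without 3d DM replicate 1 Tead2 gave 0.06.

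Within the family, Tead2 led in both GM libraries and Tead4 in both 3d DM libraries. Divided by the length of their RefSeq exons, the values of the 4 genes gave Tead2 58.6% and 46.4% of the TEAD sum in the GM libraries and 29.9% and 29.6% in the 3d DM libraries. For Tead4 the GM libraries gave 9.14% and 13.1%, and the 3d DM libraries 34.7% and 38.8%. Tead1 gave 24.8% and 29.5% in GM against 21.8% and 17.3% in 3d DM, and Tead3 7.39% and 10.9% against 13.6% and 14.2%. A share within a library does not depend on how that library was scaled. The shares of all 4 genes did not overlap between the states, and with 2 libraries against 2 an exact permutation test could not give a p below 0.333. Shares of a sum depend on each other, so a rise of Tead4 alone lowers the rest. The values of Tead1 and Tead2 themselves overlapped between the states.

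**Figure D2:**
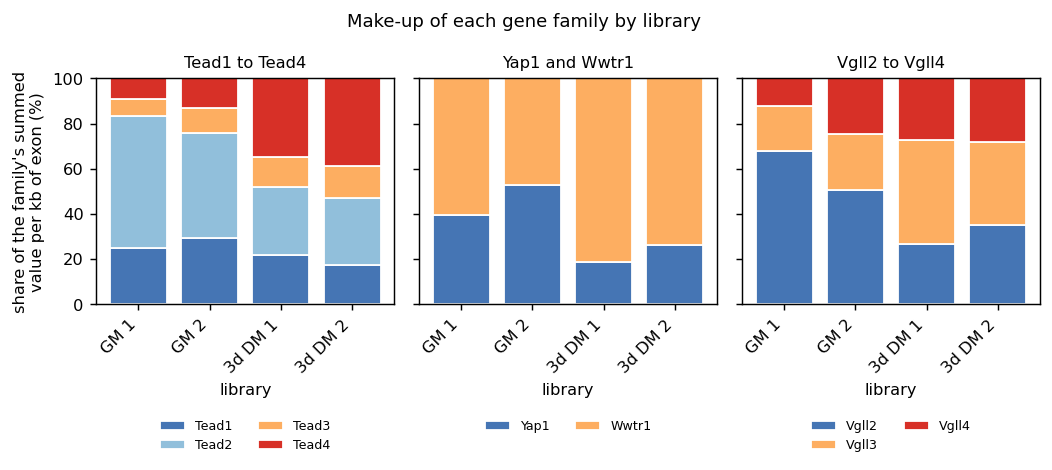
Share (%) of each gene in its family's summed value per kb of exon, in each input library. Tead4 stands at 9.14% and 13.1% in GM and at 34.7% and 38.8% in 3d DM, and Wwtr1 at 60.6% and 47.3% against 81.1% and 73.8%.

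Of the co-activators, Wwtr1 had both 3d DM libraries above both GM libraries, and Yap1 did not. Wwtr1 (chr3:57455644-57575910), which encodes TAZ, had values of 1353, 901, 2125 and 2614. The groups did not overlap, with means of 1127 ± 319.6 in GM and 2369 ± 346 in 3d DM (SD, n = 2). The log2 fold change was 1.09 ± 0.42 (SE; limma, adjusted p = 0.0528), just short of the threshold. After rescaling it was 1.32 ± 0.20 with a limma adjusted p of 0.0083. On the deposited values with the replicate number as a block, the limma adjusted p was 0.246.

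Yap1 (chr9:7931999-8004638) had values of 767, 874, 431 and 809. 3d DM replicate 1 alone was low, and 3d DM replicate 2 lay between the GM libraries. The log2 fold change was -0.47 ± 0.44 (SE; limma, adjusted p = 0.563), and -0.24 ± 0.23 after rescaling. Per kb of exon, Yap1 gave 39.4% and 52.7% of the sum of both co-activators in GM, against 18.9% and 26.2% in 3d DM. These shares did not overlap, but the Yap1 share is only what Wwtr1 leaves of the sum. The values of Yap1 themselves overlapped between the states.

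The fold changes of the Vgll genes differed in sign, and none passed the test on the deposited values. Vgll3 (chr16:65815189-65866368), a TEAD cofactor, had values of 391, 361, 477 and 873. Both 3d DM libraries were above both GM libraries, with means of 376 ± 21.1 and 675 ± 279.9 (SD, n = 2). The log2 fold change was 0.78 ± 0.44 (SE; limma, adjusted p = 0.263), and 1.01 ± 0.20 after rescaling with a limma adjusted p of 0.0193. On the deposited values it was 0.34 without 3d DM replicate 2 and 1.21 without 3d DM replicate 1.

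Vgll2 (chr10:52022502-52028471), known as a skeletal muscle cofactor, had values of 308, 169.6, 64.2 and 194. It was the gene of the 10 with the lowest fold change, but 3d DM replicate 2 lay above GM replicate 2, so that the groups overlapped. Its log2 fold change was -1.03 ± 0.49 (SE; limma, adjusted p = 0.146), and it was -0.23 without 3d DM replicate 1 and -1.82 without 3d DM replicate 2. Vgll4 (chr6:114860621-114970007), which competes with Yap1 for TEAD, had values of 110.2, 163, 128 and 303.5. These overlapped, with a log2 fold change of 0.56 ± 0.48 (SE; limma, adjusted p = 0.533), and without 3d DM replicate 2 the value was -0.06. Within the 3 genes, the share of Vgll2 per kb was 67.7% and 50.4% in GM, against 26.7% and 35.2% in 3d DM. Vgll3 made up 20.01% and 25.02% of the sum in GM against 46.2% and 36.9% in 3d DM. Vgll4 stood at 12.3% and 24.6% against 27.1% and 28.0%, and none of the 3 shares overlapped between the states. These shares too depend on each other, and the values of Vgll2 and Vgll4 themselves overlapped.

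Amotl2 (chr9:102717091-102733418), an angiomotin that binds Yap1 and is itself a well-known target of Yap1 and TEAD, had values of 506, 1266, 813 and 1803. Replicate 2 was the higher library in both states, by 2.50-fold in GM and 2.22-fold in 3d DM. The states overlapped, and the log2 fold change was 0.60 ± 0.43 (SE; limma, adjusted p = 0.413). Without GM replicate 1 it was -0.06. The gap between replicates remained after rescaling, at 2.94-fold and 1.56-fold.

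**Figure D3:**
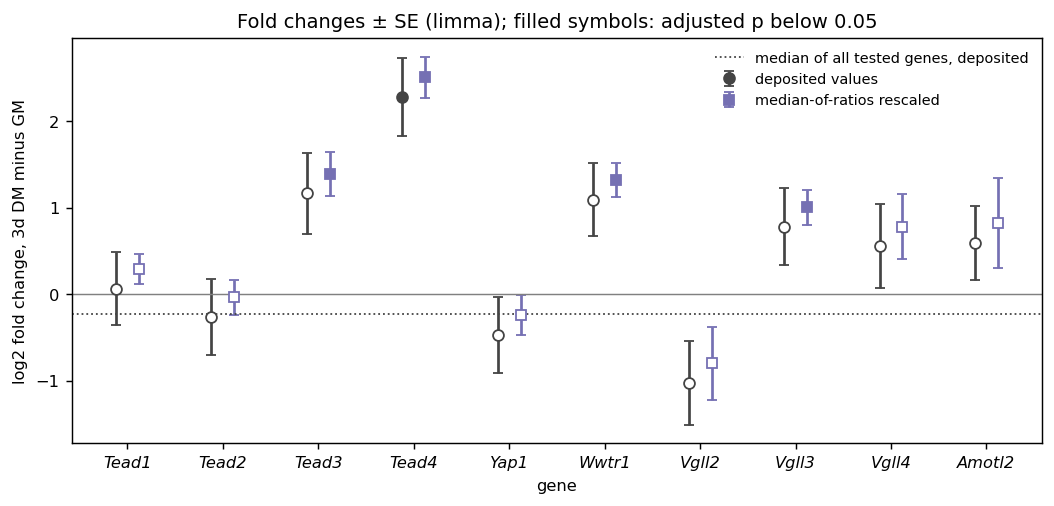
Log2 fold changes (3d DM minus GM) of the 10 genes with the standard error from limma, on deposited values (circles) and after median-of-ratios rescaling (squares). Filled symbols passed an adjusted p of 0.05, the dotted line is the median of all tested genes (-0.22). Tead4 is filled on both scales, and Tead3, Wwtr1 and Vgll3 after rescaling.

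In 4 of the 10 genes both 3d DM libraries lay above both GM libraries and in 0 below, where this held for 16.8% and 37.0% of all tested genes. Replicate 2 was the higher library in both states for 5 of the 10 genes, and for 31.1% of all tested genes. After rescaling this was so for 6 of the 10, beside 32.2%.

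Between genes, levels were compared per kb of exon. In GM, Tead2 was the highest at 293 ± 87.5 per kb (SD, n = 2), followed by Wwtr1 at 236 ± 66.8, Amotl2 at 211.5 ± 128 and Yap1 at 197 ± 18.1. Each of these overlapped with its neighbour over the 2 libraries. Tead1 followed at 149 ± 2.39 per kb, with both libraries below both of Yap1, and Vgll2 at 145 ± 59.4 overlapped with it. The lowest levels per kb were those of Tead4 (60.3 ± 7.02), Vgll3 (53.1 ± 2.97), Tead3 (49.6 ± 6.86) and Vgll4 (42.0 ± 11.4). All 4 were below both Vgll2 libraries. Tead4 and Vgll3 were set apart only by 55.3 against 55.2 in their nearest libraries, and the last 2 overlapped with their neighbours.

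In 3d DM the order per kb was led by Wwtr1 at 495 ± 72.3, whose libraries were both above both libraries of every other gene of the 10. Amotl2 (312 ± 167), Tead4 (305.5 ± 120) and Tead2 (244 ± 76.1) came next and overlapped. Tead1 (156.5 ± 24.75) was below Tead2 in both libraries and overlapped with Yap1 (149 ± 64.1). Tead3 (115 ± 40.25), Vgll3 (95.35 ± 39.5), Vgll2 (78.3 ± 55.7) and Vgll4 (66.5 ± 38.3) each overlapped with the next. Tead4 thus stood at the seventh place in GM and at the third in 3d DM.

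The genes nearest to Tead4 in pattern over the 4 libraries, by Euclidean distance of mean-centred log2 values, were Pde2a (distance 0.0927), Irx3 (0.264) and Armcx4 (0.265). Pde2a, a phosphodiesterase, had values of 82.9, 97.3, 318 and 543. Those nearest to Vgll2 were Akna (0.177), Glrb (0.324) and Niban3 (0.326), and Akna had values of 79.0, 47.2, 18.9 and 51.75. For each of the 2 genes, 30 other genes with a symbol lay within a distance of 0.5.

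The Hippo pathway list holds 33 regulators of Yap1 and TAZ, of which 31 were tested. On the deposited values 0 were called higher and 1 lower, where 7.01% and 9.96% of all tested genes were. After rescaling 3 were called higher and 1 lower, where the shares of all tested genes were 12.0% and 11.2%. The median log2 fold change of the list was 0.07, and 0.30 after rescaling. The gene called on the deposited values was Wwc1, the upstream scaffold KIBRA, with values of 43.0, 42.1, 3.11 and 11.5. Its log2 fold change was -2.61 ± 0.70 (SE), with a limma adjusted p of 0.00194. Without 3d DM replicate 1 its adjusted p was 0.206 (limma).

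Among the core kinases, Lats1, which phosphorylates Yap1 and TAZ, had values of 789, 984, 355 and 595, both 3d DM values below both GM values. Its log2 fold change was -0.94 ± 0.44 (SE; limma, adjusted p = 0.14). Lats2, its paralogue and a Yap1 target, had values of 343.5, 591, 379 and 727. Its replicates differed more than its states, with a log2 fold change of 0.22 ± 0.44 (SE; limma, adjusted p = 0.833). The Mst kinases Stk3 and Stk4 gave log2 fold changes of -0.78 and -0.33, and their adaptor Sav1 gave -0.76, with limma adjusted p-values of 0.272, 0.728 and 0.265. Nf2, the upstream activator merlin, gave 0.33 with a limma adjusted p of 0.711. Over the 31 tested genes of the list, 6 were higher in both 3d DM libraries and 8 lower, beside 16.8% and 37.0% of all tested genes.

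The YAP/TAZ target list, a widely used signature taken here without Amotl2, has 21 genes, of which 20 were tested. There were 2 called higher and 2 lower, and after rescaling 3 higher and 2 lower, which is near the shares of all tested genes given above for each scale. The median log2 fold change was -0.41, and -0.19 after rescaling. Gadd45a, a stress-response gene that restrains the cell cycle, had values of 352.5, 144.5, 1021 and 1561 and rose by a log2 fold change of 2.48 ± 0.44 (SE; limma, adjusted p = 5.18e-07). Ccdc80, a secreted matrix protein, rose by 1.32 ± 0.42 (SE; limma, adjusted p = 0.0143). Axl, a receptor tyrosine kinase, had values of 2825, 4371, 1117 and 1508 and fell, with a log2 fold change of -1.44 ± 0.42 (SE; limma, adjusted p = 0.00496). F3, tissue factor, fell with -1.90 ± 0.56 (SE; limma, adjusted p = 0.00639). None of the 4 calls held in every fit that left out a library: 0 of the 20 genes were called without 3d DM replicate 1 and 0 without 3d DM replicate 2, and 2 each without GM replicate 1 and without GM replicate 2.

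The best-known targets did not pass. Ccn1 had values of 1114, 2731, 665.5 and 1253 and a log2 fold change of -0.93 ± 0.42 (SE; limma, adjusted p = 0.123). Ccn2 had values of 85.6, 1361, 375.5 and 1042, a 15.9-fold gap between the GM replicates, and its log2 fold change was 0.87 ± 0.45 (SE; limma, adjusted p = 0.196). Ankrd1, also a muscle ankyrin-repeat protein, had values of 5402, 8401, 5422 and 7078, with a log2 fold change of -0.12 ± 0.40 (SE; limma, adjusted p = 0.904). On the deposited values, replicate 2 was the higher library in both states for all 3. The same held for 11 of the 20 targets (55%), beside 31.1% of all tested genes, and for 6 of them (30%) after rescaling, beside 32.2%. What set the replicates apart was not tested.

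The muscle genes known for an MCAT element all rose where they were tested. The list has 6 genes, of which 5 were tested, with a median log2 fold change of 4.06. All 5 were called higher on both scales, where 7.01% of all tested genes were on the deposited values and 12.0% after rescaling. Myog is also a check of the state, and a part of TEAD in these rises was not tested. Myocd, a cofactor of smooth and cardiac muscle, was at 6.01 or below in every library and was not tested. Tnnt2, cardiac troponin T, had values of 1310, 875, 15400 and 16409 and a log2 fold change of 3.89 ± 0.41 (SE; limma, adjusted p = 1.58e-19). Acta1, skeletal actin, had 1634, 439.6, 34709 and 45947 and Myh7, slow myosin, had 22.1, 19.1, 918 and 1617. Their log2 fold changes were 5.56 and 5.82 (limma, adjusted p = 5.94e-40 and 1.13e-30). Myog, the differentiation factor myogenin, rose by 4.06 (limma, adjusted p = 2.60e-20). Acta2, smooth muscle actin, had 4651, 9636, 13987 and 25285, with replicate 2 higher in both states, and a log2 fold change of 1.49 (limma, adjusted p = 0.00212). Its adjusted p rose to 0.248 without GM replicate 1, 0.138 without 3d DM replicate 1 and 0.249 without 3d DM replicate 2 (limma). For Myog it rose to 0.0662 and 0.0836 without 3d DM replicates 1 and 2.

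**Figure D4:**
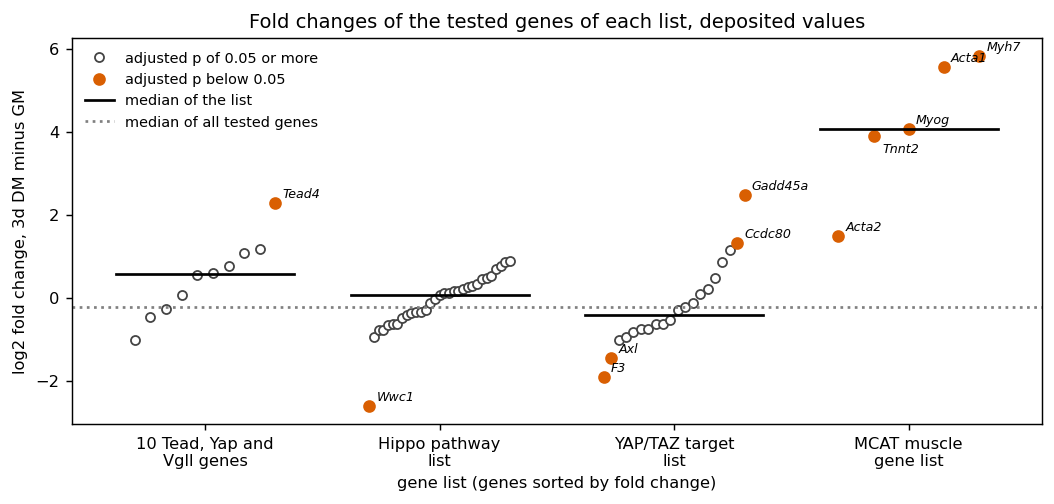
Log2 fold change (3d DM minus GM, deposited values) of every tested gene of the 10 and of the 3 lists, sorted within each. Filled points passed an adjusted p of 0.05 in limma, black lines are list medians (0.58, 0.07, -0.41 and 4.06) and the dotted line is the median of all tested genes (-0.22).

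The m6A peaks of the 10 genes were taken from the 4 peak lists, which give for each peak the ratio of immunoprecipitated over input RNA (fold). Of the 10 genes, 6 had a peak in all 4 lists (Tead4, Yap1, Wwtr1, Vgll2, Vgll3 and Amotl2), where 43.7% of the tested genes with a symbol did. Tead1, Tead3 and Vgll4 had peaks in 3 lists and Tead2 in 0. Tead1 was without a peak in 3d DM replicate 2, Tead3 in 3d DM replicate 1 and Vgll4 in GM replicate 1. A gene without a line in a list was not called there, and whether it was marked cannot be read from the list.

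Peaks that shared at least 1 bp of exon across the lists were joined into sites, of which 10 were found in all 4 lists. The region around GGAC followed by T, A or C, letters that m6A often occupies, is printed for the sites where it lay in the stretch common to all 4 lists, since these are the places where the mark was called in every library. Capitals mark 1 copy of these letters per site, in which the A is the candidate base. Each window has 30 bases of the mRNA strand, read from mm10.
Tead4, 3′ UTR, chr6:128228041-128228070, minus strand: cagaaccccggtGGACTcagccaggcatat
Yap1, 3′ UTR, chr9:7934034-7934063, minus strand: ggaggacggaggGGACCcacgctgaagact
Wwtr1, 3′ UTR, chr3:57457104-57457133, minus strand: agacgagaacatGGACTgctgttgctttca
Vgll3, coding sequence, chr16:65839683-65839712, plus strand: gagcctttcatgGGACAgtggacatcgtgc
Vgll3, 3′ UTR, chr16:65861463-65861492, plus strand: acaaagggaaggGGACTtctccgaaatagt
Amotl2, coding sequence, chr9:102724797-102724826, plus strand: gagacggttgcaGGACTtcaaccgagacct
Amotl2, 3′ UTR, chr9:102732652-102732681, plus strand: tcccaccagcagGGACTgggagagggagct

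The windows are examples: the stretch common to all lists held 6 such copies in Tead4, 5 and 3 in the sites of Vgll3, 3 and 2 in those of Amotl2, and 1 each in the 3′ UTR sites of Yap1 and Wwtr1. For scale, 57.0% of 200-base windows around the midpoints of these genes' peaks held the letters, against 46.9% of 200-base tiles over the same transcripts. Over all genes with a peak the shares were 59.9% and 50.8%. The mark itself was not located to a base.

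Tead4 was the TEAD gene with a site in all 4 lists. This site at the stop codon and in the 3′ UTR (chr6:128227919-128228604) had folds of 4.87, 6.65, 4.29 and 7.45. By these, 3d DM replicate 1 was the lowest and 3d DM replicate 2 the highest. All peaks of the site ran from 1.66 to 6.02 in 3d DM replicate 1 and from 4.22 to 7.45 in 3d DM replicate 2. The order of these libraries thus depends on the peak taken. The folds overlapped between the states, whereas the levels of the RNA did not. A site beyond the RefSeq end of Tead4 was found in 3 lists, with folds of 2.54 to 2.94. The 6 sites of Tead1 all lay in its 3′ UTR, with folds of 1.76 to 4.31, and each was found in at most 3 lists. Tead3 had 2 sites, each called in part of the lists, with folds of 5.22 to 11.4.

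Wwtr1 carried a 3′ UTR site with folds of 4.66, 3.05, 3.5 and 3.16 and a coding site with 2.57, 2.23, 1.53 and 1.92. In the coding site both 3d DM values were below both GM values, but its peaks were joined only through overlaps and no base was common to all 4 lists. Another peak of this site in 3d DM replicate 2 had a fold of 2.35, above the 2.23 of GM replicate 2. Yap1 had a site at the stop codon and in the 3′ UTR with folds of 3.73, 5.11, 3.96 and 5.34, higher in replicate 2 of both states. A second Yap1 site at the end of the 3′ UTR was absent from the list of 3d DM replicate 2.

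Vgll3 had a site over the end of the coding sequence with folds of 5.66, 5, 4.57 and 7.04 and a 3′ UTR site with 5.32, 3.33, 4.82 and 3.14. Both overlapped between the states. Vgll2 had a single site that ran over its coding sequence into the 3′ UTR, with folds of 3.66, 18.4, 3.99 and 5.01. GM replicate 2 was far above the other 3, which lay close together. All 4 lists share 2 coding stretches at this site, of 89 and 180 bases, and the longer holds none of the letters. The stretch of 89 bases, chr10:52025268-52025356 on the plus strand in mm10, is printed with its GGACC in capitals. Its site has the highest single fold of these sites, in GM replicate 2 alone, and the stretch has no fold of its own.
Vgll2, coding sequence: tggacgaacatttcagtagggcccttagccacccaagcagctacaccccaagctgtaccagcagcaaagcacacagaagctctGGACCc

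Amotl2 had the most peaks of the 10, with 11, 14, 11 and 16 lines in the lists and 3 sites in all 4. Its 3′ UTR site (chr9:102731826-102733090) had folds of 7.21, 6.65, 5.78 and 4.31, and the site over the middle of its transcript had 4.8, 4.17, 3.07 and 3.46. In both, the 3d DM values were below the GM values. Other peaks of these sites did not keep this order. In GM replicate 2 the lowest folds were 5.74 and 2.05, whereas the highest in 3d DM were 5.9 and 3.46. The upstream coding site of Amotl2 had folds of 2.56, 3.39, 1.62 and 6.22 and overlapped. In Vgll4 each site was found in at most 2 lists, with folds of 2.39 to 3.84.

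**Figure D5:**
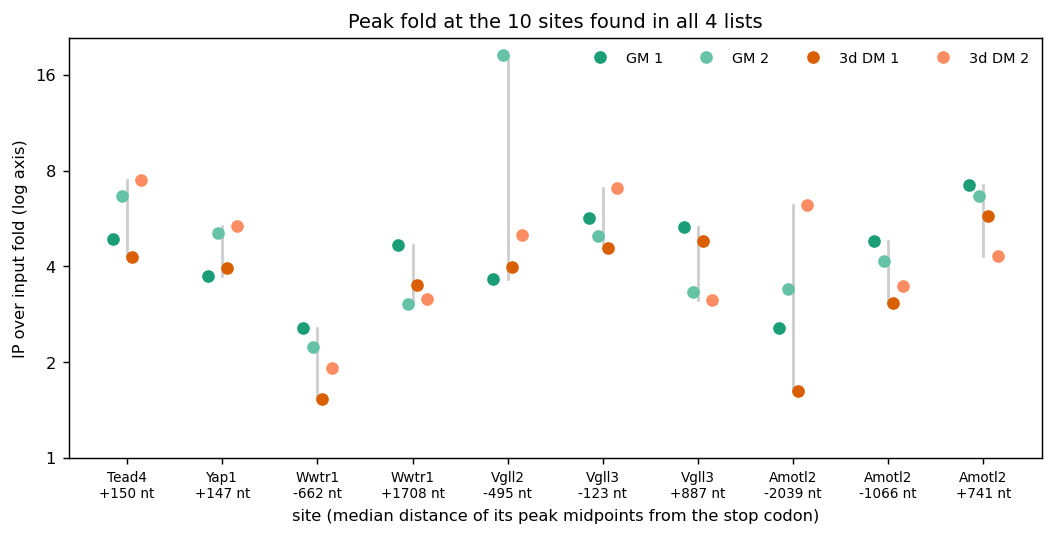
Fold of immunoprecipitated over input RNA (log axis) in each library at the 10 sites found in all 4 lists, ordered by gene and by the median distance of the peak midpoints from the stop codon in nt. The Wwtr1 coding site and the sites of Amotl2 at -1066 and 741 nt have both 3d DM points below both GM points, and the Vgll2 point of GM replicate 2 stands at 18.4.

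At the 10 shared sites the median fold was 4.73, 4.57, 3.98 and 4.65, beside 5.25, 4.60, 4.38 and 4.73 for all 6055 such sites. The difference between the states in the median log2 fold was -0.11, with p = 0.667 in the two-sided exact permutation test, whose smallest possible p is 0.333 (n = 2 per state). Both 3d DM libraries were below both GM libraries at 3 of the 10 sites and above at 0, where this held for 21.4% and 9.05% of all shared sites. These counts take the peak with the lowest p of each site and library. Of the other lists, 22 of 33 Hippo genes, 11 of 21 targets and 3 of 6 MCAT genes had a peak in all 4 lists, beside 43.7% of the tested genes with a symbol.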

How the data were processed

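Deposited processed files of the 4 input and 4 immunoprecipitated (IP) libraries were used, grouped by their labels. The authors aligned trimmed reads with HISAT2 2.1.0 (build mm10). The expression table deposited by the authors is a normalised signal, named for trimmed mean of M values, and their notes name edgeR. Its low values are not whole reads, so the depth is unknown, and pairs of values recur within a state, so a library's value may depend on its replicate. Whether counting used strand is not given in the sources used here. No exon of the 10 genes overlapped another gene's exon. The authors called peaks with exomePeak per sample at p ≤ 0.05, and the deposited lists give a p-value and a fold, the ratio of IP over input.

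Genes at 2 cpm of the column total (25.1) or more in at least 2 of the 4 libraries were tested. The test was limma 3.58.1 (R 4.3.3, trend, Benjamini-Hochberg) on log2(value + 1). Fold changes on that scale understate low genes. On simulated data the fit was checked only for its recovery of added changes. The simulated libraries were independent and had no offset between them, so the check does not bear on false calls in these data. Symbols came from Entrez identifiers (98.7% of tested genes). Exon lengths are the union of RefSeq coding transcripts' exons, and transcript positions used GENCODE M21. A site's fold is that of its peak with the lowest p. Python 3.11.15, numpy 2.4.6, pandas 2.3.3, scipy 1.17.1 and matplotlib 3.10.9 were used.

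The genes and lists were chosen with earlier results of these data known. Named were all 10 genes, Lats1, Lats2, Stk3, Stk4, Sav1, Nf2, Ccn1, Ccn2, Ankrd1, the MCAT list, up to 4 called genes per list and direction, the 3 genes nearest in pattern to the genes with the highest and lowest fold change, and state checks. Alternatives were 2 cpm in 3 libraries, no filter, pseudocounts of 0.1 and 4, median-of-ratios or trimmed-mean (30% and 5%) rescaling, no trend, the replicate number as a block and each library left out. For peaks they were a threshold of 1e-05, a fold of at least 4 and an overlap of 50%. The authors' own comparisons were not used.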

Additional observations from a re-analysis of the deposited data

How the results depend on the processing

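Of the alternative fold changes of the 10 genes, 108 kept direction and side of the threshold, 6 passed it newly (Tead3, Wwtr1 and Vgll3 under both rescalings), 1 no longer passed (Tead4 without 3d DM replicate 2) and 5 changed sign. These 5 were Tead1 without 3d DM replicate 2, Tead2 without GM replicate 1 or 3d DM replicate 1, Vgll4 without 3d DM replicate 2 and Amotl2 without GM replicate 1. With a library left out, the log2 fold change of Tead1 ran from -0.0962 to 0.228, that of Tead2 from -0.589 to 0.0568, that of Vgll4 from -0.0642 to 1.18 and that of Amotl2 from -0.0647 to 1.26. Without a change of sign, Yap1 ran from -0.924 to -0.0169, Wwtr1 from 0.8 to 1.39 and Tead3 from 0.802 to 1.53. Median-of-ratios and trimmed-mean rescaling each called 4 of the 10 genes, in place of 1, and 4 Hippo genes, in place of 1. Rescaling removes the offset between libraries, including that within a state. A filter of 2 cpm in 3 libraries left 0 Hippo genes called, because it removed Wwc1. With each library left out in turn, 145 to 1252 of all genes were called in place of 1936, 0 to 1 of the 10 genes, 0 to 1 Hippo genes, 0 to 2 targets in place of 4 and 3 to 5 MCAT genes in place of 5. These fits have fewer samples, and where a state has 1 library its spread is assumed to be that of the other state. Under the replicate block 1298 genes, 1 of the 10 genes, 1 Hippo gene, 2 targets and 5 MCAT genes were called. The labels give no batch behind the numbers, and the deviations of same-numbered libraries from their group means correlated at r = 0.29 across 11406 genes, which are not independent replicates. Peaks with a fold of at least 4 left 3 of the 10 genes with a peak in all 4 lists in place of 6, and leaving out a library gave 6 to 7. The unknown depth leaves a peak's absence uninformative.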
